A study of Mus musculus with 25 samples.

Results

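Epithelial genes that mark bile ducts or liver progenitor cells were followed across mouse livers and liver tumors. The set held 10 genes of the 48795 in the gene tables: Epcam, Krt7, Krt19, Krt23, Sox9, Sox4, Cd24a, Prom1, Cdh17 and Tspan8. They were chosen by symbol, and each symbol mapped to 1 Ensembl gene. All 10 passed the filter on low counts. The mice were males of the inbred strain C57BL/6J. Every library was made from bulk tissue, so fewer cells of a type and less RNA per cell cannot be told apart. Mice that received no carcinogen gave liver after control diet (group nonDEN-L-CD, n = 3) or Western-style diet (group nonDEN-L-WD, n = 4). Mice injected with diethylnitrosamine gave liver after control diet (group DEN-L-CD, n = 4), or, after Western-style diet, peritumoral liver (DEN-PT-WD, n = 8) and tumors (DEN-T-WD, n = 6). Diethylnitrosamine (DEN) damages DNA once hepatocyte enzymes have converted it. Mice received 25 mg/kg at 2 weeks of age, the diets began at weaning, and tissue was collected at 36 weeks, with 39 weeks as the latest age in the study. Tumors of DEN-L-CD mice were too small to be separated, so this liver may hold small lesions. The labels do not tie a tumor to the peritumoral liver of the same mouse.

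Cholangiocytes, the epithelial cells of bile ducts, carry the simple keratins Krt7 and Krt19, the adhesion molecule Epcam and the transcription factor Sox9. Hepatocytes normally lack these keratins, but in chronic injury small duct-like cells multiply around the portal tract, and some hepatocytes take on duct or progenitor genes. Several genes of this kind are also active in fetal liver, in gut epithelium and in liver cancers.

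Upstream sequence was available for 6 of the 10 genes, in RefSeq on GRCm38.p6, and Krt19, Sox9, Cd24a and Cdh17 had no entry. The 250 bases before a start are shown for genes that rose together in tumors (Tspan8, Krt23, Sox4 and the downstream start of Prom1) and for Epcam, which did not pass the test there. Capitals mark matches to the motifs searched.
Tspan8, chr10:115817034-115817283, + strand: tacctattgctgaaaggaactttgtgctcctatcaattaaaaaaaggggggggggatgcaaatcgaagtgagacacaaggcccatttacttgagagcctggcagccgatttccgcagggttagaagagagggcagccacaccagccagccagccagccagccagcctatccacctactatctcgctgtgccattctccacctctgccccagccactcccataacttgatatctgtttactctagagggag
Krt23, chr11:99493121-99493370, - strand: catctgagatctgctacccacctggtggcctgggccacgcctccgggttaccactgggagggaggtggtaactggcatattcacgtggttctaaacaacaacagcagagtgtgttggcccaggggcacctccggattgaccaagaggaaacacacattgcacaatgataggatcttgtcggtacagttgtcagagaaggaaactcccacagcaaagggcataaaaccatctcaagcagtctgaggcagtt
Sox4, chr13:28953700-28953949, - strand: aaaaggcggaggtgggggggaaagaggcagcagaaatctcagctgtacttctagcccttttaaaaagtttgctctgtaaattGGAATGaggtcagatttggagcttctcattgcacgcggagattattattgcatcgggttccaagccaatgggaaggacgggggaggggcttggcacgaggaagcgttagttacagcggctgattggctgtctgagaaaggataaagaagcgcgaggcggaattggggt
Prom1, chr5:44094769-44095018, - strand: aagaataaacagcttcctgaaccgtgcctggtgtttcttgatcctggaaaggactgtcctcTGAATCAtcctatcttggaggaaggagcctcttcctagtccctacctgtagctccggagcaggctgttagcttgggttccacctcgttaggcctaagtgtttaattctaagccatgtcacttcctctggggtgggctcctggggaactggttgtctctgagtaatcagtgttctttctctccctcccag
Epcam, chr17:87635729-87635978, + strand: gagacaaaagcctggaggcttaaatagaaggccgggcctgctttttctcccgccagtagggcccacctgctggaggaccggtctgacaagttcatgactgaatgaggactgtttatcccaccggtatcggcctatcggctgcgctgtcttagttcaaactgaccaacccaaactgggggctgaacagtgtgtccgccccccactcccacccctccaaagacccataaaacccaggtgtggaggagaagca

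Motifs were searched on both strands in the same 250 bases of 32851 RefSeq starts. AP-1 (TGANTCA) occurred in 6.75% of all windows, TEAD (GGAATG) in 12.6%, RBPJ (GTGGGAA) in 5.42%, HNF1 (GTTAAT) in 6.43% and SOX (ACAATGG) in 3.02%. Among the 6 genes, Sox4 held 1 TEAD match, which began at -168 from the start. Prom1 held 1 AP-1 match in each of its windows, at -189 in the window shown and at -88 in the upstream one, which lies within annotated exons and is not printed. Krt23, Tspan8, Krt7 and Epcam held no match to these letters, and no matches overlapped each other. Up to 17 of the 250 bases printed per window lie in annotated exons.

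Libraries held between 21530083 and 38074411 expected counts, the read counts that RSEM assigns to genes. Tumor replicate 5 stood apart: Alb, the main plasma protein made by hepatocytes, was at 21880 TPM there and at 82840 TPM or more in the other 5 tumors. RNA of pancreatic acinar cells, which make digestive enzymes, varied widely within every group, with summed TPM of its 15 markers from 10.03 to 7236 in DEN-PT-WD. TPM, the usual transcript-number unit, is a length-corrected share of a library, and it is used here for levels. Fold changes are log2 differences from the expected counts after TMM scaling. On the TPM scale the median tested gene differed by -0.09 to 0.50 (log2) between groups, and by 0.14 between tumors and peritumoral liver, where in the count fit it differed by 0.01. A gene was called at an adjusted p (edgeR's quasi-likelihood test, Benjamini-Hochberg over 15625 genes) of at most 0.05 together with a log2 fold change of 1 or more in size.

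The duct markers Epcam, Krt7 and Krt19 held at most 6.99 TPM in any library, and none was called higher in tumors in any comparison. Epcam (chr17:87635979-87651129) encodes a surface adhesion molecule of ducts and progenitor cells. Its TPM values were 0.84, 0.79 and 1.99 in nonDEN-L-CD, with 1.93, 0.77, 0.77 and 1.14 in nonDEN-L-WD, while DEN-L-CD held 0.75, 0.97, 1.29 and 0.95. DEN-PT-WD ran from 0.73 to 3.07 TPM with a median of 1.26, and DEN-T-WD from 1.07 to 4.03 with a median of 1.71. The ranges of all 5 groups overlapped, and tumors 1 and 2 were the highest libraries of the series. No neighbouring groups in the order of mean Epcam differed at an adjusted p of 0.05.

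Krt7 (chr15:101411043-101430313) encodes a type II keratin of simple epithelia and ducts. It measured 0.85, 0.58 and 0.61 TPM in nonDEN-L-CD, with 1.66, 0.39, 0.62 and 1.11 in nonDEN-L-WD, while DEN-L-CD held 0.63, 0.39, 0.91 and 1.15. In DEN-PT-WD the lowest, median and highest were 0.38, 0.79 and 2.55 TPM, against 0.20, 0.60 and 1.5 in tumors. Krt7 overlapped across all 5 groups, and its highest values were in peritumoral liver 8 and 6, in replicate 1 of nonDEN-L-WD and in tumor 1.

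Krt19 (chr11:100140810-100148665), a type I keratin and the usual duct marker in liver sections, had higher mean TPM than Krt7 in every group. Its TPM was 3.75, 1.58 and 4.14 in nonDEN-L-CD, with 1.44, 1.94, 1.77 and 6.94 in nonDEN-L-WD, while DEN-L-CD held 3.64, 3.66, 6.99 and 1.44. Peritumoral liver spanned 1.87 to 6.21 TPM (median 3.04) and tumors 0.80 to 4.6 (median 2.14). Mean Krt19 was lowest in tumors, where 3 of 6 libraries held 1.10 TPM or less and the other 3 held 3.18 or more. Peritumoral liver 6, 7 and 8 held more Krt19, and also more Krt7, than the other 5 peritumoral libraries.

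Krt23 was highest in tumors. It is a type I keratin (chr11:99477974-99493137) that is scarce in healthy liver and is known to rise in steatotic and injured liver. Values were 1.65, 0.29 and 0.37 TPM in nonDEN-L-CD, with 1.91, 3.26, 2.36 and 1.04 in nonDEN-L-WD, while DEN-L-CD held 1.83, 2.70, 1.63 and 2.44. They ranged from 1.28 to 12.3 TPM (median 6.60) in peritumoral liver and from 10.2 to 35.6 (median 19.3) in tumors. All 6 tumors were above every liver of the 3 groups without resected tumors, and peritumoral liver overlapped both sides.

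Both SOX transcription factors were highest in tumors, with other orders of the group means below them. Sox9 (chr11:112782224-112787760) specifies duct fate in the embryonic liver and marks adult ducts and hybrid hepatocytes beside the portal vein. It was at 1.51, 1.69 and 2.15 TPM in nonDEN-L-CD, with 0.88, 0.71, 0.89 and 0.55 in nonDEN-L-WD, while DEN-L-CD held 0.90, 0.85, 1.24 and 0.98. Peritumoral liver ran from 0.79 to 2.83 TPM (median 1.27) and tumors from 2.45 to 5.84 (median 4.35). Untreated liver on control diet was above every library of nonDEN-L-WD and DEN-L-CD, and the tumors were above untreated liver of either diet.

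Sox4 (chr13:28948919-28953713) works beside Sox9 in duct development and is active in many tumors. It was at 0.53, 0.50 and 0.55 TPM in nonDEN-L-CD, with 1.14, 1.41, 0.98 and 0.47 in nonDEN-L-WD, while DEN-L-CD held 0.62, 1.00, 0.92 and 1.06. The 8 peritumoral libraries held 1.46 to 3.39 TPM (median 2.49), and the 6 tumors 5.18 to 14.9 (median 6.75). Every peritumoral library was above every liver of the other 3 groups, and every tumor was above every peritumoral library.

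Among the surface proteins, Cd24a (chr10:43578284-43584265), a heavily glycosylated anchor protein of progenitor and immune cells, was present in every library. Its TPM was 3.86, 2.04 and 5.78 in nonDEN-L-CD, with 7.60, 3.96, 4.69 and 5.41 in nonDEN-L-WD, while DEN-L-CD held 7.19, 6.69, 5.49 and 3.56. Peritumoral liver spanned 5.74 to 12.9 TPM (median 8.17) and tumors 7.77 to 18.6 (median 11.5). Every tumor was above every untreated liver in Cd24a, peritumoral liver overlapped all other groups, and no neighbouring groups in the order of means differed at an adjusted p of 0.05.

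Prom1 (chr5:43993620-44102032) encodes prominin-1, known as CD133, a pentaspan protein of membrane protrusions used to sort progenitor cells. It was at 0.97, 0.76 and 1.33 TPM in nonDEN-L-CD, with 2.07, 1.05, 1.10 and 1.40 in nonDEN-L-WD, while DEN-L-CD held 0.59, 1.47, 0.99 and 1.84. Peritumoral liver ran from 1.67 to 10.6 TPM (median 3.65) and tumors from 4.66 to 27.1 (median 19.0). Tumor 5 was the lowest tumor, below peritumoral liver 3, 4 and 5, while the other 5 tumors were above all peritumoral libraries.

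Cdh17 (chr4:11758147-11817895) encodes liver-intestine cadherin, an adhesion protein of gut epithelium. It was close to absent from untreated liver, with 0.00, 0.03 and 0.46 TPM in nonDEN-L-CD and 0.00, 0.03, 0.02 and 0.00 in nonDEN-L-WD, where no library held more than 2 counts. DEN-L-CD held 0.06, 0.17, 0.62 and 1.76 TPM, peritumoral liver 0.58 to 4.65 (median 1.57) and tumors 1.17 to 12.2 (median 8.79). All DEN-L-CD libraries were above all nonDEN-L-WD libraries, and replicate 3 of nonDEN-L-CD, with 31 counts, was the only untreated liver with more than 2.

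Tspan8 (chr10:115816832-115849893), a tetraspanin of gut epithelium and carcinomas, reached the highest level of the 10 genes. Its TPM was 1.61, 1.99 and 3.32 in nonDEN-L-CD, with 3.41, 1.78, 1.54 and 3.33 in nonDEN-L-WD, while DEN-L-CD held 4.88, 5.64, 8.71 and 9.18. Peritumoral liver ranged from 9.27 to 128 TPM (median 37.3) and tumors from 23.6 to 229 (median 179.7). All injected livers were above all untreated livers, and all peritumoral livers above all DEN-L-CD livers. Tumor 5 was again lowest, and peritumoral liver 3, at 128 TPM, was above tumors 4 and 5. Separation of groups varied in frequency over all tested genes. DEN-L-CD lay wholly above nonDEN-L-WD, as for Cdh17 and Tspan8, in 2.1% of them, wholly above nonDEN-L-CD in 17.4% and wholly below it in 11%. Tumors lay wholly above nonDEN-L-CD in 44.5% and above DEN-L-CD in 41.7%, and peritumoral liver wholly above nonDEN-L-CD in 33.1%.

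**Figure D1:**
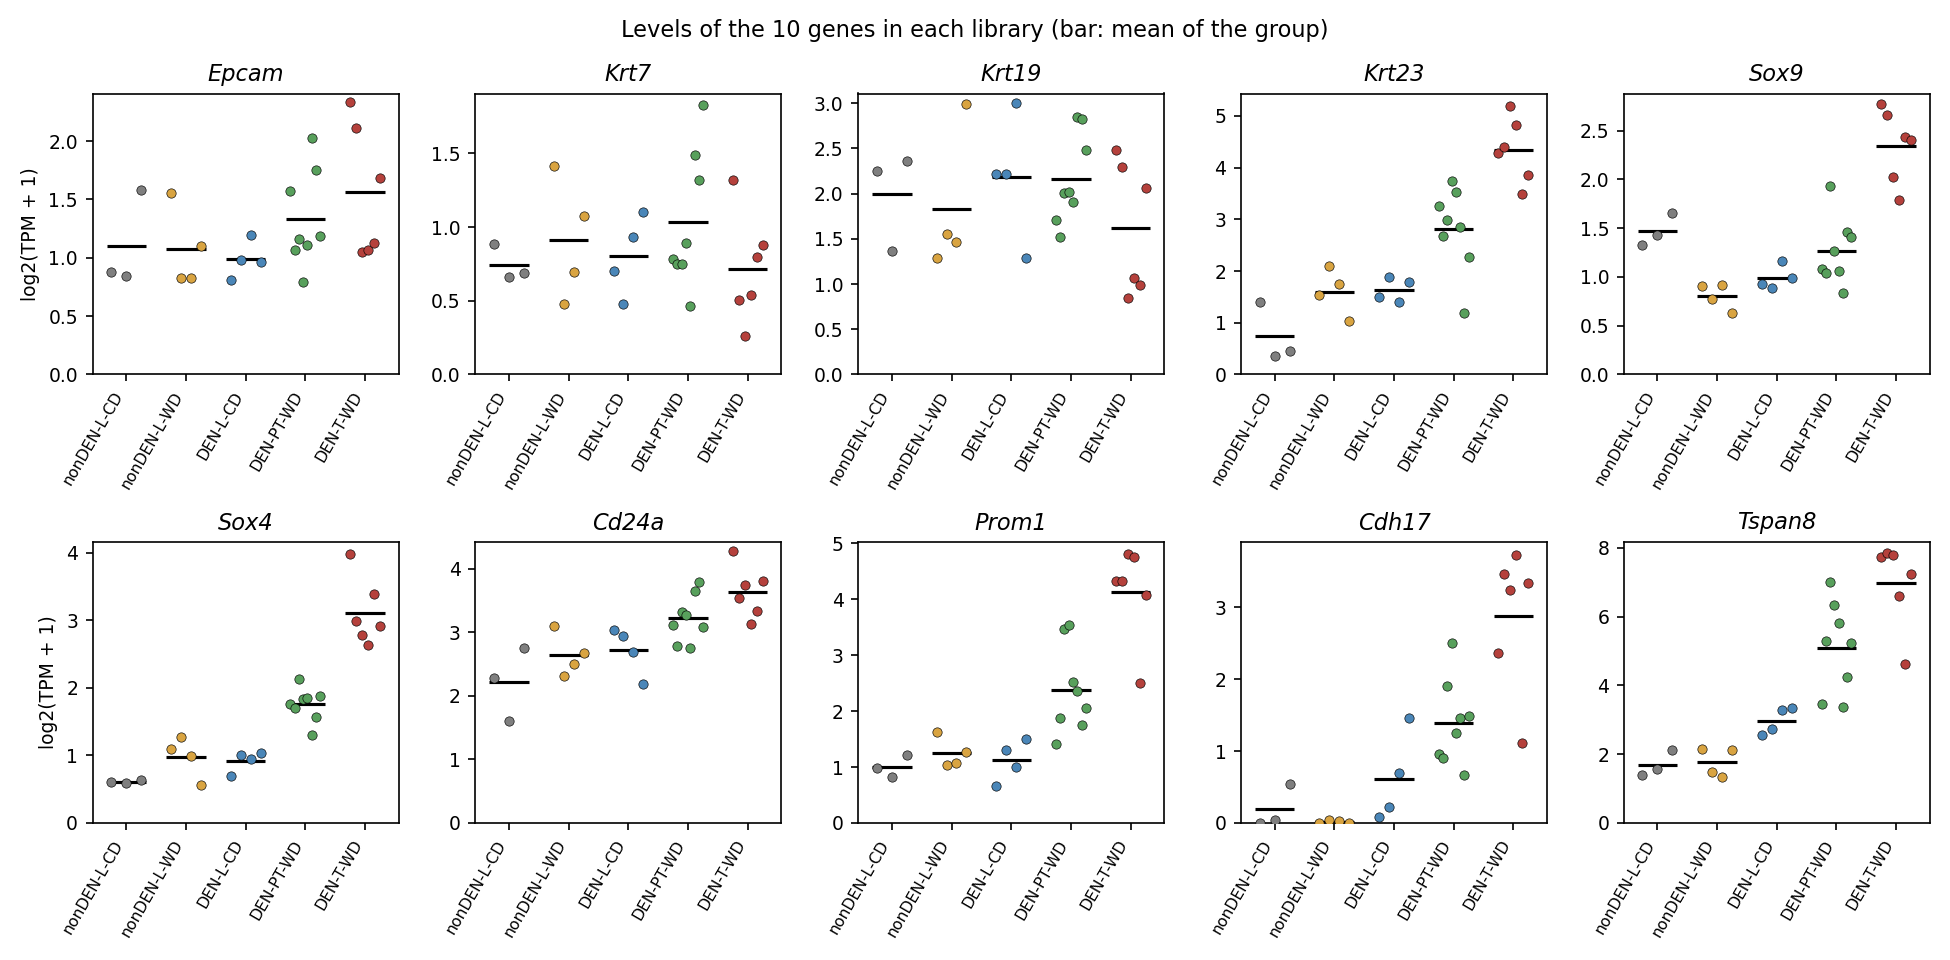
Each panel plots 1 gene, with log2(TPM + 1) on the vertical axis and a point per library in the 5 groups; the bar is the mean of the group on that scale and the panels have separate axes from 0. Krt23, Sox9, Sox4, Prom1, Cdh17 and Tspan8 are highest in DEN-T-WD, whereas Epcam, Krt7 and Krt19 overlap across all groups.

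The comparison of tumors with peritumoral liver asked which of these genes marked the tumor itself, with diet and carcinogen shared. Krt23, Sox9, Sox4, Prom1, Cdh17 and Tspan8 were higher in tumors, 6 of the 10 genes, where 4.81% of all tested genes were called higher. None was lower, where 3.09% of all tested genes were. Prom1 averaged 18.6 ± 8.14 TPM (SD, n = 6) in tumors and 4.94 ± 3.50 (SD, n = 8) in peritumoral liver, a log2 fold change of 1.92 ± 0.40 (SE, adjusted p = 0.000614). Sox4 had the smallest adjusted p of the 10, with 8.15 ± 3.61 TPM against 2.42 ± 0.560 and a log2 fold change of 1.60 ± 0.20 (adjusted p = 3.06e-06). Sox4 was also the only gene of the 10 whose TPM ranges did not overlap between these groups, which held for 8.36% of all tested genes in this direction.

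The other 4 called genes rose by 1.38 to 1.92 on the log2 scale. Krt23 differed by 1.51 ± 0.37 on the log2 scale (adjusted p = 0.00264), with means of 20.9 and 6.89 TPM. Sox9 differed by 1.38 ± 0.22 (adjusted p = 4.55e-05), with means of 4.23 and 1.46 TPM. Cdh17 differed by 1.92 ± 0.57 (adjusted p = 0.0109) and Tspan8 by 1.61 ± 0.50 (adjusted p = 0.0137), and with the replicate number as a block Tspan8 was not called (1.65, adjusted p = 0.168). Both had wide spreads in the tumors, 7.5 ± 4.07 and 155 ± 82.3 TPM (SD, n = 6).

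The 4 remaining genes were not called, and the keratins among them lay on the lower side. Krt19 had a log2 fold change of -0.96 (95% confidence interval -1.92 to -7e-04, adjusted p = 0.109) and Krt7 of -0.70 (-1.49 to 0.09, adjusted p = 0.161). Epcam had 0.26 (-0.46 to 0.99, adjusted p = 0.597) and Cd24a 0.33 (-0.17 to 0.83, adjusted p = 0.306). These intervals do not show that the genes were equal. Without tumor 1 Krt7 passed the threshold, at a log2 fold change of -1.29 (adjusted p = 0.00435). The median over the 10 genes was 1.44, against 0.01 over all tested genes. Without tumor 5 the same 6 genes were called.

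**Figure D2:**
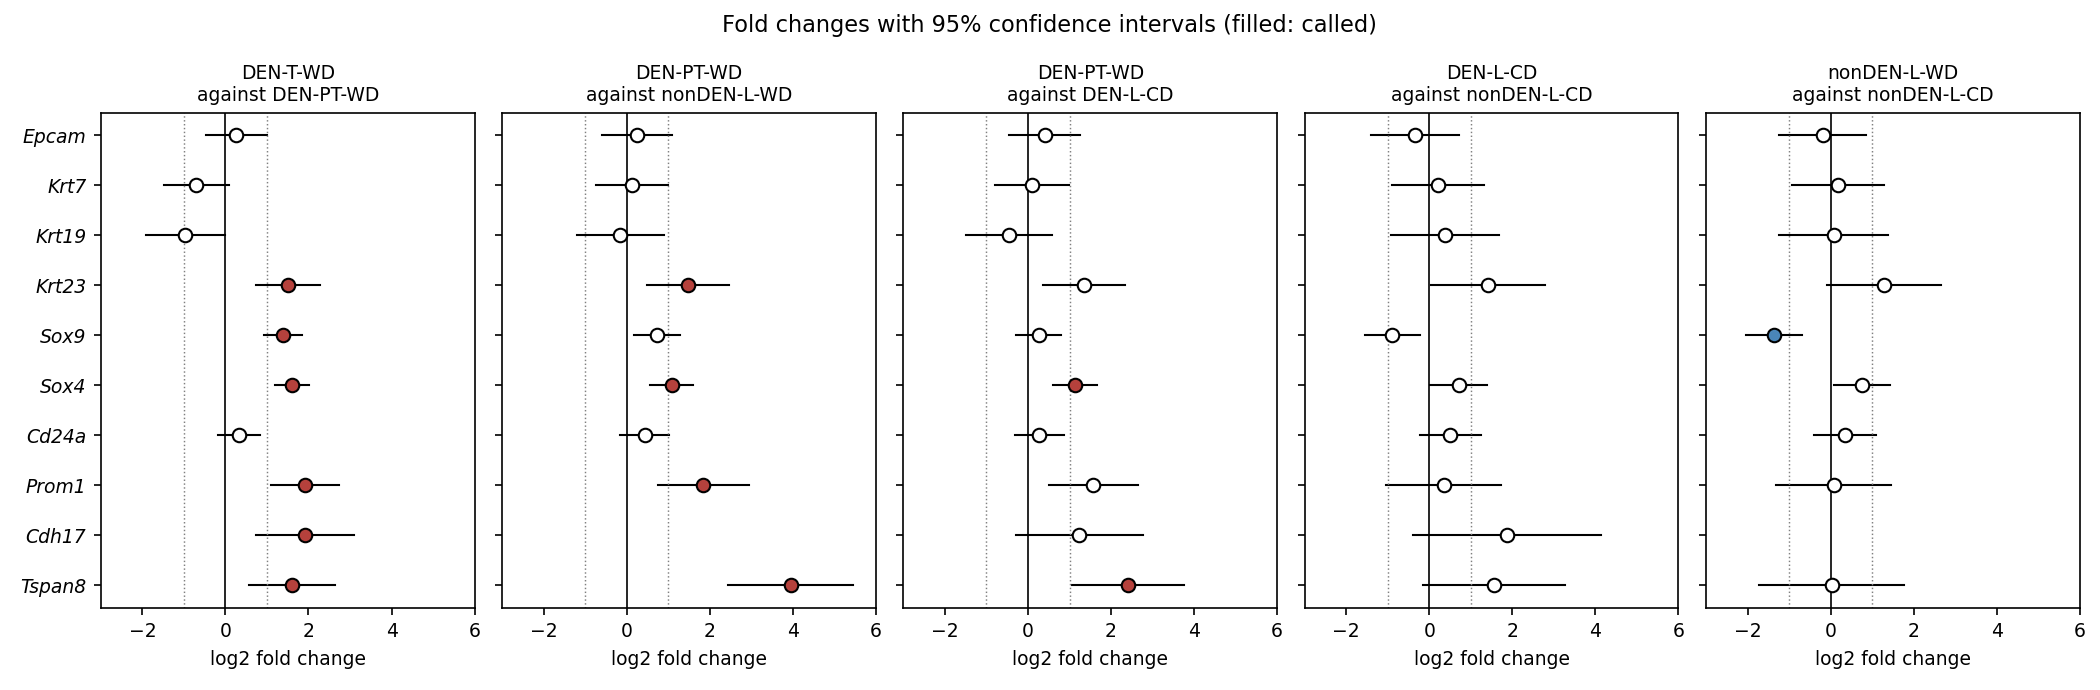
Log2 fold changes of the 10 genes (horizontal axis) with 95% confidence intervals in 5 comparisons; filled points were called (red higher, blue lower) and dotted lines mark a log2 fold change of 1 in either direction. Cdh17 is left out of the comparisons with nonDEN-L-WD, where it had at most 2 counts per library. In DEN-T-WD against DEN-PT-WD 6 points are filled, and Krt7 and Krt19 lie to the left of 0.

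Tumors were also set against livers that had no resected tumor. Against nonDEN-L-WD, untreated liver on the same diet, Krt23, Sox9, Sox4, Prom1, Cdh17 and Tspan8 were higher, 6 of 10 where 10.4% of all tested genes were. The log2 fold change was 5.56 ± 0.80 for Tspan8 (adjusted p = 6.71e-06), 3.77 ± 0.58 for Prom1 (adjusted p = 1.40e-05), 2.98 ± 0.51 for Krt23, 2.69 ± 0.27 for Sox4 and 2.11 ± 0.29 for Sox9. Cdh17 was at least 139-fold higher in tumors, taking 3 counts per library as the floor of nonDEN-L-WD. Cd24a differed by 0.76 ± 0.30 (adjusted p = 0.0379), below the minimum fold. The TPM ranges did not overlap for these 6 genes and Cd24a, 7 of 10 where 32.1% of all tested genes were higher without overlap. The comparisons of tumors share the tumor libraries, so their lists are not independent of each other.

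Against nonDEN-L-CD the tumors were higher in Krt23, Sox4, Cd24a, Prom1, Cdh17 and Tspan8, 6 of 10 where 14.5% of all tested genes were. Cd24a reached 1.11 ± 0.34 (adjusted p = 0.00830), and lost the call without nonDEN-L-CD replicate 2 (0.78, adjusted p = 0.0756) or without tumor 1 (0.96, below the minimum fold). Sox9 differed by 0.75 ± 0.30 (adjusted p = 0.0376), under the minimum fold. Against DEN-L-CD, liver of injected mice on the other diet, 6 genes were higher where 9.68% of all tested genes were, the same 6 as against peritumoral liver. Krt19 was called lower there, at -1.42 ± 0.53 (adjusted p = 0.0324), where 4.58% of all tested genes were. That Krt19 call was lost when DEN-L-CD replicate 1 or 3 or tumor 3, 4 or 5 was left out, with log2 fold changes of -1.65 to -1.05 over all libraries left out. It was also lost with the acinar level as a covariate (-1.09, adjusted p = 0.0859) and with limma on log2(TPM + 1) (-0.56, adjusted p = 0.224). Upk3b, Upk1b, Wt1, Lrrn4 and Muc16, 5 of 7 markers of mesothelium, which shares this keratin, were also lower in tumors than in DEN-L-CD.

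Peritumoral liver was next compared with untreated liver on the same diet. Krt23, Sox4, Prom1, Cdh17 and Tspan8 were higher in peritumoral liver, 5 of 10 where 2.36% of all tested genes were, and none was lower, where 0.41% were. The TPM ranges of Sox4, Cdh17 and Tspan8 did not overlap, 3 of 10 where this held for 9.74% of all tested genes in this direction. Tspan8 averaged 46.9 ± 40.7 TPM (SD, n = 8) against 2.52 ± 0.993 (SD, n = 4), a log2 fold change of 3.95 ± 0.73 (adjusted p = 0.00242). Cdh17 was at least 36.6-fold higher, on the same floor. Prom1 differed by 1.85 ± 0.53 (adjusted p = 0.0264), Krt23 by 1.47 ± 0.48 (adjusted p = 0.0450) and Sox4 by 1.08 ± 0.25 (adjusted p = 0.00869). Sox9 had 0.73 ± 0.27 (adjusted p = 0.0743), and Epcam, Krt7, Krt19 and Cd24a lay between -0.15 and 0.43.

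The count in that comparison moved with single libraries. Cdh17 and Tspan8 were called whichever library was left out. Without nonDEN-L-WD replicate 4 only these 2 were called, without nonDEN-L-WD replicate 1, 2 or 3 they were called with Sox4, and without peritumoral liver 3 with Prom1. Krt23 lost the call in 9 of the 12 fits with a library left out (adjusted p up to 0.150). That call was also lost with no filter on low counts (adjusted p = 0.0637), with only the groups compared (adjusted p = 0.0549) and with the acinar level as a covariate (adjusted p = 0.0535). With the replicate number as a block neither Krt23 (adjusted p = 0.0591) nor Prom1 (1.91, adjusted p = 0.0995) was called. Limma on log2(TPM + 1) put Sox4 at 0.78, below the minimum fold. Peritumoral liver 3 and 4 held the most Tspan8 (128 and 79.8 TPM), Prom1 (10.1 and 10.6) and Cdh17 (2.74 and 4.65) of the 8, and also the most Afp (48.1 and 25.7) and Gpc3 (77.1 and 66.4), oncofetal genes of liver tumors. The part of such RNA in the peritumoral values was not tested.

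Diet within injected mice was read from peritumoral liver on Western-style diet against DEN-L-CD, which also differ in whether tumors were removed, so diet and the neighbouring tumor cannot be told apart. Sox4 and Tspan8 were higher in peritumoral liver, 2 of 10 where 1.52% of all tested genes were. Sox4 differed by 1.13 ± 0.25 (adjusted p = 0.00850) and Tspan8 by 2.41 ± 0.66 (adjusted p = 0.0219), and the TPM ranges of neither gene overlapped, which held for 21.2% of all tested genes in this direction. With limma on log2(TPM + 1) Sox4 was below the minimum fold, at 0.835 (adjusted p = 0.00226). The collagen genes Col1a1, Col1a2 and Col3a1, 3 of 9 stellate cell and fibroblast markers, were also higher in peritumoral liver here, and their part in the Sox4 and Tspan8 values was not tested. Prom1 (1.58 ± 0.52, adjusted p = 0.0547) and Krt23 (1.36 ± 0.48, adjusted p = 0.0691) were just outside the threshold. Without DEN-L-CD replicate 1 no gene was called by edgeR, with Tspan8 at 2.28 (adjusted p = 0.0734) and Sox4 at 1.00, just below the minimum fold. Only Sox4 was called without replicate 2 or 3, and Krt23, Sox4, Prom1 and Tspan8 without peritumoral liver 7.

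The Western-style diet alone was tested in untreated mice. By edgeR only Sox9 was called, lower on Western-style diet by a log2 fold change of -1.36 ± 0.32 (adjusted p = 0.00429), 1 of 10 where 2.04% of all tested genes were called lower. It averaged 0.758 ± 0.161 TPM (SD, n = 4) on Western-style diet and 1.78 ± 0.330 (SD, n = 3) on control diet, and the ranges did not overlap, as in 6.27% of all tested genes in this direction. DESeq2's Wald test called Cdh17 lower beside Sox9 (-4.10, adjusted p = 0.0163), while limma on log2(TPM + 1) called 0 genes, with Sox9 at -0.66 (adjusted p = 0.0420), below the minimum fold. Cdh17 held 31 counts in nonDEN-L-CD replicate 3 and at most 2 in every other untreated liver. By edgeR its difference ran from -4.78 to -0.554 with each library left out in turn. Of the markers of other cell types, Col1a1, Col1a2 and Col3a1 (3 of 9 stellate cell and fibroblast genes) and Cd79a and Cd22 (2 of 5 B cell genes) were higher on Western-style diet, and the 4 neutrophil genes tested were lower. Krt23 (1.29 ± 0.66, adjusted p = 0.164) and Sox4 (0.75 ± 0.33, adjusted p = 0.0988) lay on the higher side without being called. The interval of the difference was -1.71 to 1.77 for Tspan8 and -1.30 to 1.46 for Prom1, so the data set no narrow bound on the diet difference of either gene. Krt23 was called higher without nonDEN-L-CD replicate 1, at 2.53 (adjusted p = 0.0290).

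DEN alone was tested on control diet, DEN-L-CD against nonDEN-L-CD. By edgeR 0 of 10 genes were called, where 4.7% of all tested genes were called in either direction, and DESeq2's Wald test also called 0. Among markers of other cell types, 4 of 5 B cell genes were higher in DEN-L-CD and 2 of 4 neutrophil genes lower. Hba-a1 (1 of 6 erythroid genes) and Gpm6a (1 of 7 mesothelium genes) were also higher. At an unadjusted p under 0.05 there were 3 of the 10 genes, Sox9, Krt23 and Sox4, where 34.4% of all tested genes were. Sox9 differed by -0.89 ± 0.32 (adjusted p = 0.0499), below the minimum fold, Krt23 by 1.41 ± 0.66 (adjusted p = 0.134) and Sox4 by 0.71 ± 0.33 (adjusted p = 0.128). Tspan8 had 1.56 ± 0.83 (adjusted p = 0.185) although its TPM ranges did not overlap, as in 17.4% of all tested genes in this direction, and it was called when only these 7 libraries were fitted (adjusted p = 0.0120). Krt23 was called without nonDEN-L-CD replicate 1, at 2.65 (adjusted p = 0.0243).

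DEN with Western-style diet, peritumoral liver against nonDEN-L-CD, differed in 5 of the 10 genes. Krt23 (2.76 ± 0.62), Sox4 (1.84 ± 0.30), Prom1 (1.93 ± 0.61), Cdh17 (3.11 ± 1.01) and Tspan8 (3.97 ± 0.84) were higher, where 10.2% of all tested genes were. Without nonDEN-L-CD replicate 2, Prom1 (adjusted p = 0.0849) and Cdh17 (adjusted p = 0.0824) lost the call, and Cdh17 also without replicate 1 (adjusted p = 0.0734). Single control libraries also moved the size, since Cdh17 differed by 6.43 without nonDEN-L-CD replicate 3 and Krt23 by 3.99 without replicate 1. Whether the diet difference was the same with and without DEN was tested as an interaction, in which the injected mice on Western-style diet are represented by peritumoral liver, and by edgeR Sox9 alone passed, at 1.62 ± 0.42 (adjusted p = 0.0194), 1 of 10 where 1.57% of all tested genes were called higher. The Sox9 diet difference was -1.36 in untreated mice and 0.26 ± 0.26 (adjusted p = 0.559) in injected mice, and without nonDEN-L-CD replicate 3 the interaction was not called (adjusted p = 0.0681). DESeq2's Wald test also called Cdh17 in the interaction (5.30, adjusted p = 0.0161), and with limma on log2(TPM + 1) Sox9 was below the minimum fold (0.93, adjusted p = 0.0386). By edgeR the Cdh17 interaction ran from 1.785 to 6.32 with each library left out in turn. The neutrophil markers moved the same way as Sox9: 4 of the 4 tested were lower on Western-style diet in untreated mice, and 2 were higher in the interaction, and their part in the Sox9 result was not tested.

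The patterns of the 10 genes over the 25 libraries were compared in pairs. Prom1, Cdh17 and Tspan8 varied most alike, with Pearson's r of log2 CPM of 0.93 for Prom1 with Tspan8, 0.90 for Cdh17 with Tspan8 and 0.87 for Prom1 with Cdh17. Sox4 and Krt23 followed them (0.74 to 0.85 with these 3 genes), and Sox9 less closely (0.57 to 0.67 with Sox4, Prom1, Cdh17 and Tspan8, and 0.36 with Krt23). Krt7 and Krt19 had r = 0.65 with each other and -0.54 to -0.23 with the 6 genes that rose in tumors. Epcam was closest to Cd24a (0.59). These coefficients describe libraries that share group, depth and tissue composition.

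**Figure D3:**
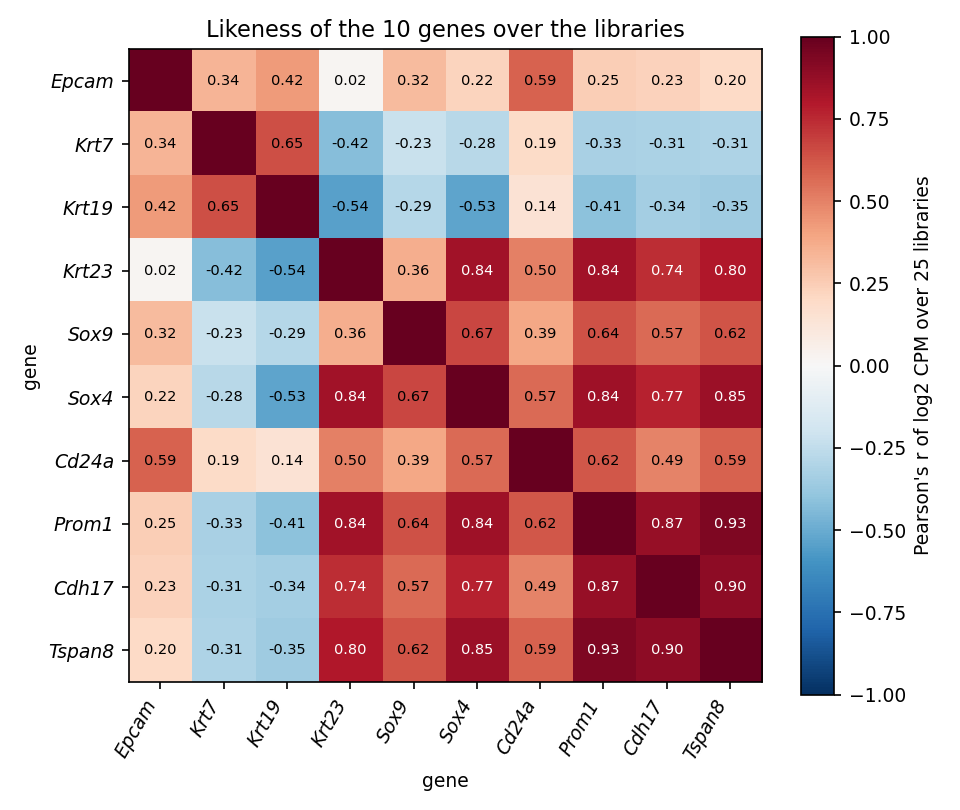
Pearson's r of log2 CPM over 25 libraries for each pair of the 10 genes, on a colour scale from -1 to 1 with the value printed in each cell. Krt23, Sox4, Prom1, Cdh17 and Tspan8 form a block with r of 0.74 or more, and Krt7 and Krt19 are negatively related to it.

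Outside the set, the tested genes most like each member over the 25 libraries were listed. For Tspan8 they were Klrb1b (r = 0.970), Alox5 (0.968) and Kif5c (0.967), for Prom1 Galnt6 (0.963), Ccdc88c (0.960) and Ptgfrn (0.958), and for Cdh17 Igdcc4 (0.938), Akr1c18 (0.934) and 5330417C22Rik (0.922). For Sox4 they were Tgfbr2 (0.965), Mfge8 (0.964) and Sh3pxd2b (0.962), for Krt23 Tusc3 (0.951), Sccpdh (0.940) and Cul7 (0.933), and for Sox9 Tes (0.938) and the ribosomal protein genes Rplp0 (0.904) and Rps10 (0.903). The duct markers had looser partners. Epcam was most like Gucy2c (0.758) and Cftr (0.718), Krt7 most like Wnt7b (0.757), Muc1 (0.729) and Steap2 (0.714), Krt19 most like Gcnt3 (0.754), Clec2d (0.742) and Phlda1 (0.736), and Cd24a most like Hddc3 (0.800), Cpm (0.764) and Ppp1r12a (0.763).

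Further genes of bile duct epithelium were mixed in tumors against peritumoral liver. Of 20 listed, 17 passed the filter, 4 were higher, 1 was lower and 12 were not called, with a median log2 fold change of 0.67, where 4.81% of all tested genes were higher and 3.09% lower. Without tumor 5, 3 of the 16 then tested were higher. Spp1, which encodes osteopontin, was higher by 1.97 ± 0.27 (adjusted p = 8.86e-06), Cdh1, the epithelial cadherin, by 1.78 ± 0.31, and Bicc1, an RNA-binding protein of tubular epithelia, by 1.38 ± 0.23. Muc1, an apical mucin of ducts, was lower (-1.14 ± 0.31, adjusted p = 0.00632). Ggt1, an apical enzyme of ducts, was called at 4.26 ± 1.40, but tumor 5 held 104.9 TPM of it and the other tumors at most 1.42, and without tumor 5 it was at -0.80 (adjusted p = 0.652). The secretin receptor gene Sctr and the transcription factor gene Grhl2 were too low to test, and Cftr, the chloride channel of duct cells, was at 0.39 TPM or less in the tumors.

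The signalling pathways that act on duct fate were measured with 15 genes of Notch and Hippo signalling. In tumors against peritumoral liver 1 of them, Ajuba, a scaffold protein of Hippo signalling, was higher (1.34 ± 0.22, adjusted p = 5.43e-05), where 4.81% of all tested genes were, none was lower, and the median was 0.30. A share of 1 in 15 is near that of all tested genes. Against nonDEN-L-WD 6 were higher in tumors, where 10.4% of all tested genes were: Hes1, Hey1, Nrarp, Ccn2, Ankrd1 and Ajuba. Hes1, Hey1 and Nrarp are targets of Notch, and Ccn2 and Ankrd1 are targets of YAP. In peritumoral liver against nonDEN-L-WD Hey1 and Ankrd1 were higher, where 2.36% of all tested genes were.

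Other genes linked to progenitor cells or fetal liver were measured as well. Of 10 listed, 9 passed the filter, and in tumors against peritumoral liver 5 were higher and 1 lower, with a median of 1.65, beside the same 4.81% and 3.09%. Igf2bp3, a fetal RNA-binding protein, was higher by 2.62 ± 0.45, Itga6, a laminin receptor subunit, by 1.75 ± 0.19, and Tnfrsf12a, the TWEAK receptor, by 1.90 ± 0.36. The oncofetal genes Gpc3 (2.22 ± 0.61) and Afp (1.65 ± 0.45) were also higher. Lgr5, a Wnt target of hepatocytes around the central vein, was lower (-1.39 ± 0.17, adjusted p = 2.77e-06). Genes of this list also rose outside tumors. With DEN alone on control diet Afp, Tnfrsf19, Itga6 and Igf2bp3 were higher (4 of 9), where 2.76% of all tested genes were. In peritumoral liver against nonDEN-L-WD these were Afp, Gpc3, Itga6 and Igf2bp3 (4 of 9), where 2.36% were. None was lower in either comparison. Igf2bp3 held at most 5 counts per library in DEN-L-CD and 9 in peritumoral liver. Foxl1 had at most 3 counts in every library.

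**Figure D4:**
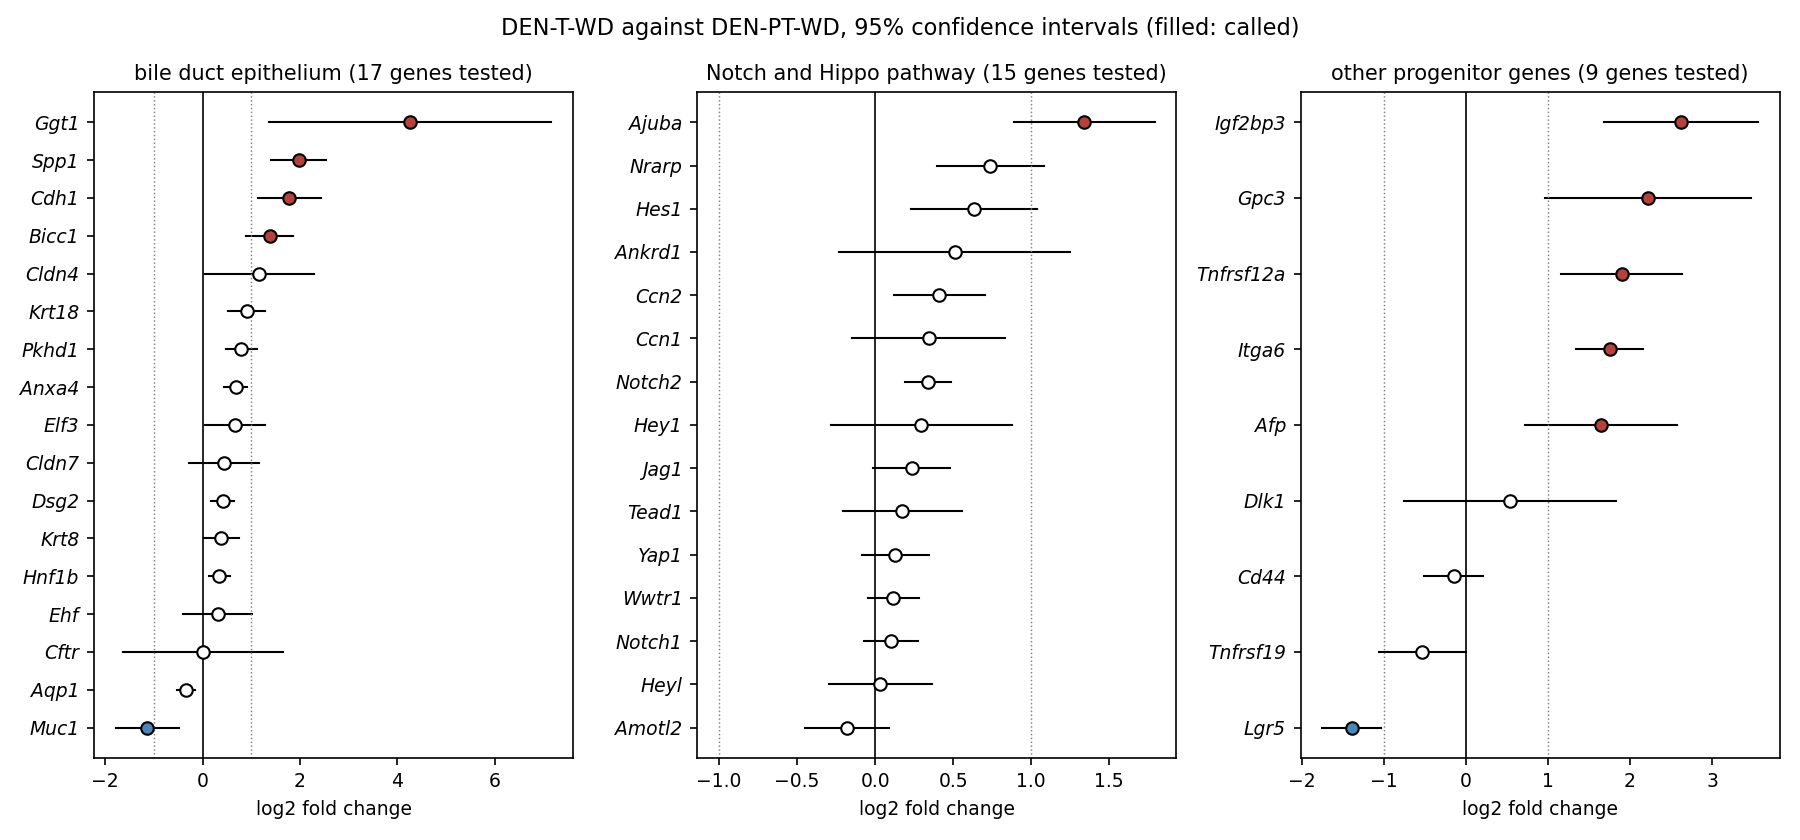
Log2 fold changes of DEN-T-WD against DEN-PT-WD (horizontal axis) with 95% confidence intervals for the tested genes of 3 lists; filled points were called (red higher, blue lower), dotted lines mark a log2 fold change of 1 in either direction, and the panels have separate axes. Ggt1 has the widest interval, and 5 of the 9 other progenitor genes are higher.

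Markers of other tissues were read beside these results. The summed TPM of 7 mesothelium markers, whose cells share Krt7 and Krt19, was 3.03 to 5.53 in tumors and 4.48 to 11.7 in peritumoral liver, and Upk3b, Upk1b, Wt1 and Muc16 were lower in tumors (4 of 7, 2 of 7 without tumor 5). The part of mesothelium in the Krt7 and Krt19 values was not tested. Pancreatic ducts also carry these keratins, and the 15 acinar markers summed to 23.4 to 1806 TPM in tumors (median 35.45) and 10.03 to 7236 in peritumoral liver (median 310). Their median log2 fold change between these groups was -2.20. By edgeR 0 of 15 were called in either direction in any of the comparisons above, the interaction included, and 0 were at an unadjusted p under 0.05. The spread within groups was too wide for this test to decide whether acinar RNA differed. With the acinar level as a covariate the 6 genes higher in tumors than in peritumoral liver were again called. Of 7 intestinal epithelium markers, which bear on Cdh17, Tspan8 and Epcam, 5 were tested and 0 were called by edgeR in tumors against peritumoral liver, with 1, Lgals4, at an unadjusted p under 0.05 where 45.9% of all tested genes were. Krt20, a keratin of intestinal epithelium, was higher in tumors against nonDEN-L-WD (4.34 ± 1.11, adjusted p = 0.00248), nonDEN-L-CD (4.27 ± 1.26, adjusted p = 0.00649) and DEN-L-CD (2.94 ± 0.99, adjusted p = 0.0186). Its mean was 7.59 ± 4.90 TPM (SD, n = 6) in tumors and 0.263 ± 0.505 (SD, n = 4) in nonDEN-L-WD. Vil1 was higher in tumors than in nonDEN-L-CD and DEN-L-CD, Lgals4 was lower in tumors in all 3 of these comparisons, and the part of intestinal epithelium in the Cdh17, Tspan8 and Epcam values was not tested. Cdx1 had at most 3 counts in every library, and the Vil1 gene, for an actin-binding protein of microvilli, was at 7.67 TPM in tumor 5, the tumor lowest in Cdh17 and Tspan8, and at 2.47 in peritumoral liver 6, which held the most Epcam of the 8. Among 7 hepatocyte genes Apoa1 was higher and Cyp3a11 lower in tumors than in peritumoral liver, and Alb was also higher without tumor 5. Against each of nonDEN-L-WD, nonDEN-L-CD and DEN-L-CD, Cyp3a11, Cps1 and Tat (3 of 7) were lower in tumors. Apoa1 was also higher against nonDEN-L-WD. Of the B cell (5), neutrophil (4), erythroid (6), stellate cell and fibroblast (9) and endothelium (6) markers tested, edgeR called 0 in tumors against peritumoral liver. At an unadjusted p under 0.05 there were 6 stellate cell and fibroblast genes (Col1a1, Col1a2, Col3a1, Dcn, Lrat and Des), 5 endothelium genes (Pecam1, Cdh5, Stab2, Vwf and Emcn), 1 erythroid gene (Alas2), 0 B cell genes and 0 neutrophil genes, where 45.9% of all tested genes were at that p. Against the livers without resected tumors more of these markers were called in tumors. Against nonDEN-L-WD they included Col1a1, Col1a2, Col3a1, S100a8, S100a9, Emcn and Hbb-bt on the higher side and Alas2 on the lower, and against nonDEN-L-CD all 5 B cell markers were higher in tumors and in peritumoral liver. Against nonDEN-L-CD peritumoral liver was also higher in Col1a1, Col1a2, Col3a1 and Lum and lower in all 4 neutrophil markers tested, and against DEN-L-CD tumors were higher in Col1a1, Col1a2, Col3a1 and Emcn. Their part in the results of the 10 genes was not tested.

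The counting method limits some of these values. The use of strand in the counting is not given in the sources used here, and genes on the opposite strand overlap Krt7 (Gm671), Sox4 (Gm26735), Prom1 (Gm16401) and Tspan8 (4930422I22Rik), so their reads cannot be told apart without it. Gm42716 overlaps Prom1 on the same strand. Of the 50-base words of Cd24a transcripts, 2.7% also occur in Gm6212, and at most 0.3% of the words of any other member occur in other genes.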

How the data were processed

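RNA-seq of 25 bulk tissue libraries was analysed. The authors aligned reads with STAR to GRCm38 after FastQC and quantified genes with RSEM; the versions of STAR and RSEM, the annotation and the strand setting are not given in the sources used here. The deposited tables hold RSEM expected counts, TPM and FPKM per gene, as the authors made them. Expected counts were rounded to whole numbers for the tests, TPM was used for levels, and FPKM was not used. The animals' ages were taken from the study's methods.

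Genes were filtered with filterByExpr (minimum count 10), scaled by TMM and fitted in 1 model of 5 groups with edgeR 4.0.16 (quasi-likelihood test, R 4.3.3), with Benjamini-Hochberg adjustment over 15625 genes. Calls needed an adjusted p no larger than 0.05 and a log2 fold change of 1 or more in size. The study names DESeq2. Every member was to be described, with the called genes of each other list and the 3 genes of highest Pearson's r to each member; some genes that this rule or the lists would name are not reported here. The 10 genes and the other lists were chosen with earlier results of these data known. Totals of 21530083 to 38074411 expected counts set the precision, and a floor of 3 counts per library was used for folds, which covers counting error only. Replicates are separately labelled samples, and p-values measure only the spread between them, which may in part be technical. No 2 libraries of a group agreed within sampling noise. Gene positions are from GENCODE on GRCm38, and upstream sequences from RefSeq on GRCm38.p6.

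On simulated data with 200 genes changed 4-fold, 100% were recovered between tumors and peritumoral liver (15251 genes) and 96% between the diets in untreated mice (15248 genes). Only genes above a minimum mean count were changed, and all genes were drawn with the same spread between libraries. These shares therefore do not carry over to genes with few reads, such as Cdh17, or with a wider spread. Alternatives were DESeq2 1.42.0 (Wald test, size factors), no filter on low counts, only the groups compared, no minimum fold change, a replicate block, each replicate left out, limma 3.58.1 on log2(TPM + 1), and an acinar covariate. Tables and plots used Python 3.11.15, NumPy 2.4.6, pandas 2.3.3 and Matplotlib 3.10.9.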

Additional observations from a re-analysis of the deposited data

Results flagged for a closer look

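Krt19 in replicate 4 of nonDEN-L-WD, at 6.94 TPM, stood far from the other 3 replicates, which held 1.44 to 1.94 TPM, with a gap of 0.909 of the group's range against Dixon's 95% critical value of 0.829. Sox9 in peritumoral liver 3, at 2.83 TPM, stood above the other 7 peritumoral libraries, which held 0.79 to 1.75 TPM, with a gap of 0.529 against a critical value of 0.526. Over the 10 genes 40 groups were examined at both ends, and 2 such values were found, where chance gives about 1 in 20 groups. The Sox9 diet difference in injected mice, read from peritumoral liver against DEN-L-CD, differed from that in untreated mice by an interaction of 1.62 on the log2 scale (adjusted p = 0.0194, edgeR's quasi-likelihood test). Diet and the neighbouring tumor cannot be told apart in the injected mice. Without peritumoral liver 3 the interaction was 1.41, again past the threshold. It was not called without nonDEN-L-CD replicate 3 (adjusted p = 0.0681, edgeR), and with limma on log2(TPM + 1) it was 0.93, below the minimum fold.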

How the results depend on the processing

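Over settings other than a library left out, 653 of 698 fold changes of the 10 genes kept their direction and their side of the threshold, 13 lost a call, 13 gained 1 and 19 changed sign with neither value called; the causes were not tested. DESeq2's Wald test called 4 genes between peritumoral liver and DEN-L-CD, 2 between the diets in untreated mice and 2 for the interaction, in the last 2 with Cdh17 joining Sox9. Limma on log2(TPM + 1) called 0 in either of these last 2, with Sox9 at -0.66 (adjusted p = 0.0420) and 0.93 (adjusted p = 0.0386), below the minimum fold on a scale that understates low genes, as was Sox4 in peritumoral liver against nonDEN-L-WD (0.78, adjusted p = 0.00578) and DEN-L-CD. For DEN-L-CD against nonDEN-L-CD, 1 gene was called with no minimum fold (Sox9) and 1 with only the groups compared (Tspan8).

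The labels do not say what the replicate numbers stand for, and no clear pairing was seen. Weak correlations cannot exclude a shared mouse. If tumors and peritumoral livers came from the same mice, the main test left that pairing out of its p-values. Same-numbered tumors and peritumoral livers correlated at -0.23 to 0.339 (6 pairs, 2 of 6 best with their own number), and in no comparison was every pair over 0.1; in DEN-L-CD against nonDEN-L-CD 3 of 3 were best with their own number. With the replicate block, the numbers called were 3 for DEN-PT-WD against nonDEN-L-WD, 5 against DEN-L-CD, 1 for DEN on control diet and 2 for the interaction, and tumors against peritumoral liver gave 5, with Tspan8 at 1.65 (adjusted p = 0.168). Also not called with the block were Prom1 (1.91, adjusted p = 0.0995) and Krt23 (1.75, adjusted p = 0.0591) in DEN-PT-WD against nonDEN-L-WD, and Krt19 (-1.43, adjusted p = 0.0567) in tumors against DEN-L-CD. Over all genes the block called 890 in tumors against peritumoral liver, against 991 in the same samples without it, and 187 against 371 for DEN-PT-WD against nonDEN-L-WD. Signs changed with the block for Epcam and Krt7 in DEN-PT-WD against nonDEN-L-WD (-0.084 and -0.41), DEN-L-CD (-0.012 and -0.47) and nonDEN-L-CD (-0.041 and -0.27), for Krt19 (-0.72) and Tspan8 (-0.23) in nonDEN-L-WD against nonDEN-L-CD, and for Krt23 in the interaction (-0.14).

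The acinar covariate, the comparison of tumors with DEN-L-CD and the other lists without tumor 5 were chosen after seeing the data. Krt19 changed sign with that covariate and with limma in DEN-PT-WD against nonDEN-L-WD (0.078 and 0.34), DEN-PT-WD against nonDEN-L-CD (0.018 and 0.17) and nonDEN-L-WD against nonDEN-L-CD (-0.06 and -0.17). In the interaction Cd24a did so with both (0.024 and 0.072), and Krt7 (0.06) and Krt19 (0.15) with limma.

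With each library left out in turn, the numbers called ranged from 2 to 5 for DEN-PT-WD against nonDEN-L-WD, 0 to 4 against DEN-L-CD, 3 to 6 against nonDEN-L-CD, 1 to 2 for diet in untreated mice, 0 to 1 for DEN on control diet and 0 to 2 for the interaction. Ranges that crossed 0 were, in DEN-PT-WD against nonDEN-L-WD, Krt7 -0.14 to 0.32 and Krt19 -0.38 to 0.71, against DEN-L-CD Krt7 -0.18 to 0.25, and against nonDEN-L-CD Epcam -0.19 to 0.63 and Krt19 -0.37 to 0.12. In nonDEN-L-WD against nonDEN-L-CD they were Epcam -0.51 to 0.39, Krt7 -0.017 to 0.41, Krt19 -0.79 to 0.29, Prom1 -0.28 to 0.61 and Tspan8 -0.23 to 0.42, and in DEN-L-CD against nonDEN-L-CD Epcam -0.59 to 0.23 and Prom1 -0.003 to 0.89. In the interaction they were Krt7 -0.35 to 0.12, Krt19 -0.76 to 0.33, Krt23 -1.19 to 0.47 and Cd24a -0.48 to 0.25. Krt7, Epcam and Cdh17 outside tumors rest on few reads per library, which limits their precision. The same holds for Krt23 in nonDEN-L-CD replicates 2 and 3 (8 and 11 counts) and Krt19 in tumors 3, 4 and 5 (15, 17 and 23 counts).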
